A study of Homo sapiens with 24 samples.

Results

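Integrins are cell surface receptors made of an alpha and a beta subunit, and laminins are basement membrane proteins made of an alpha, a beta and a gamma chain. The 38 genes described here are the protein-coding rows of the count table whose symbol names an integrin subunit (ITGA or ITGB, 26 genes) or a laminin chain (LAMA, LAMB or LAMC, 12 genes), out of 58735 rows in all. The rule that picks them uses symbol and gene type and no measured value, but it was set with earlier results of these data known. RNA was sequenced from SAS, a human oral squamous carcinoma line, carrying either the E79Q form of NRF2 or wild-type (WT) NRF2. NRF2, encoded by NFE2L2, is a transcription factor that drives antioxidant genes, and KEAP1 is the protein that marks it for degradation. Each genotype was studied in 4 treatments with 3 libraries each: untreated, CB-839 (a glutaminase inhibitor) at 0.1 µM, radiation at 4 Gy, and radiation with CB-839. Cells received the drug or its vehicle 24 h ahead of radiation, and irradiated cells were harvested for RNA 24 h after it. The labels give no harvest time for unirradiated cells, so their total time under the drug is not known. The 8 groups are therefore untreated E79Q and WT cells, E79Q and WT cells under CB-839, irradiated E79Q and WT cells, and irradiated E79Q and WT cells under CB-839. How the E79Q form was introduced, and whether each genotype is 1 clone, is not stated in the sources used here. A clonal difference and the allele cannot be told apart in the genotype comparisons. The labels do not say that replicates were separate cultures, so p-values measure the spread between these libraries, which may be technical.

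Epithelial cells rest on laminin-332, which holds the chains encoded by LAMA3 and LAMB3. Integrin alpha 6 beta 4 anchors them to it in hemidesmosomes, and integrin alpha 3 beta 1 binds it in focal contacts and during migration. Laminin-511, which holds the alpha 5 chain encoded by LAMA5 with the beta 1 and gamma 1 chains, is the other widespread laminin of epithelial basement membranes. Alpha v integrins (with beta 1, 3, 5, 6 or 8) and alpha 5 beta 1 bind proteins with the RGD motif, such as fibronectin and vitronectin. Alpha 1 beta 1 and alpha 2 beta 1 bind collagens, and the integrins of the beta 2 subunit are those of leukocytes.

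The 24 libraries held 14285084 to 23640197 counts each, and mitochondrial genes took 1.93% to 3.55% of them. NQO1, a target gene of NRF2, averaged 587 ± 22.1 CPM (counts scaled to a common library size) in untreated E79Q cells and 354 ± 3.06 CPM in untreated WT cells (SD, n = 3 each). It was higher in E79Q than in WT cells in all 4 treatments (edgeR adjusted p at most 2.36e-09). KEAP1 was also called higher in E79Q cells in all 4, at 105 CPM in untreated E79Q and 70.8 CPM in untreated WT cells. NFE2L2 itself averaged 134 CPM in untreated E79Q and 169 CPM in untreated WT cells. It was called lower in E79Q cells untreated and with both treatments, and was not called under CB-839 alone or after radiation alone. The library of replicate 2 of irradiated E79Q cells under CB-839 stood apart. Over tested genes it differed from the other 2 libraries of its group by a chi-square per degree of freedom of 32.3 and 22.1, against 4.00 between those 2. It lay outside their range for 25 of the 27 members that could be tested, above both for 10 and below both for 15. Any 1 of 3 libraries lies outside the range of the other 2 for most genes, and the share was not counted over all genes or for other libraries. Its deviation from the group mean correlated with GC content across genes (r = 0.479, a description of 1 library). Of the 31 calls of members that use its group, 27 were also made without it, none with another sign, and those 27 log2 values moved by 0.043 in the median and by at most 0.26 (LAMA1 between E79Q and WT cells with both treatments). The 4 calls lost without it were ITGB8 between E79Q and WT cells with both treatments (log2 fold change -0.31 without it, -0.48 with it), ITGA6 with radiation in E79Q cells under CB-839 (-0.088 and -0.21), and ITGA3 and LAMB1 under CB-839 in irradiated E79Q cells (0.11 and 0.18 for ITGA3, -0.11 and -0.19 for LAMB1). Without it, 6 genes were gained between E79Q and WT cells with both treatments: ITGA2, LAMA3 and ITGAV, described further on, and ITGB1 (0.26 without it, 0.12 with it), ITGA3 (-0.16 and -0.098) and ITGB4 (-0.14 and -0.077). All 9 markers of squamous epithelium on a list that included KRT5, KRT14, KRT17 and TP63 were detected in every group, and all 9 were lower in untreated E79Q than in untreated WT cells. Their summed level ran from 1982 to 2116 CPM in untreated E79Q cells and from 3160 to 3212 CPM in untreated WT cells. It was also lower in E79Q cells in the other 3 treatments: 1672 to 1765 against 2679 to 2880.0 CPM under CB-839, 1778 to 1838 against 2399 to 2561 CPM after radiation, and 1799 to 2123 against 2382 to 2533 CPM with both. The part of this shift in the genotype results that follow was not tested.

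Members were compared with each other per length, as RPKM (CPM per kb of the deposited gene length). LAMB3, the beta chain of laminin-332, led the list with an average of 292 RPKM over the 24 libraries. The laminin receptor subunits stood lower, ITGA3 at 121 RPKM, ITGB4 at 84.3 RPKM and ITGB1 at 84.2 RPKM, of which the last pair differed by less than the spread between groups. LAMC1 stood at 63.2 RPKM, the collagen receptor subunit ITGA2 at 51.8 RPKM, LAMB1 at 40.8 RPKM and ITGA6 at 34.7 RPKM. The alpha chains LAMA3 and LAMA5 both averaged 25.3 RPKM, with different patterns over the groups. The vitronectin receptor subunits ITGB5 and ITGAV stood at 19.6 and 16.1 RPKM, LAMB2 at 10.2 RPKM and the fibronectin receptor subunit ITGA5 at 10.02 RPKM. ITGA4, ITGAE, ITGB2 and ITGB8 lay between 1.57 and 5.64 RPKM. A further 8 tested genes (LAMA4, ITGA1, ITGB6, LAMB4, LAMA2, ITGA7, LAMA1 and ITGAX) lay under 1 RPKM. Of the 38 genes, 11 had too few reads to be tested. ITGA8 and ITGAD had 0 reads in all 24 libraries, and ITGA9, ITGAL, ITGAM, ITGA10, ITGA11, ITGA2B, ITGB3, ITGB7 and LAMC3 each averaged under 0.3 CPM.

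**Figure D1:**
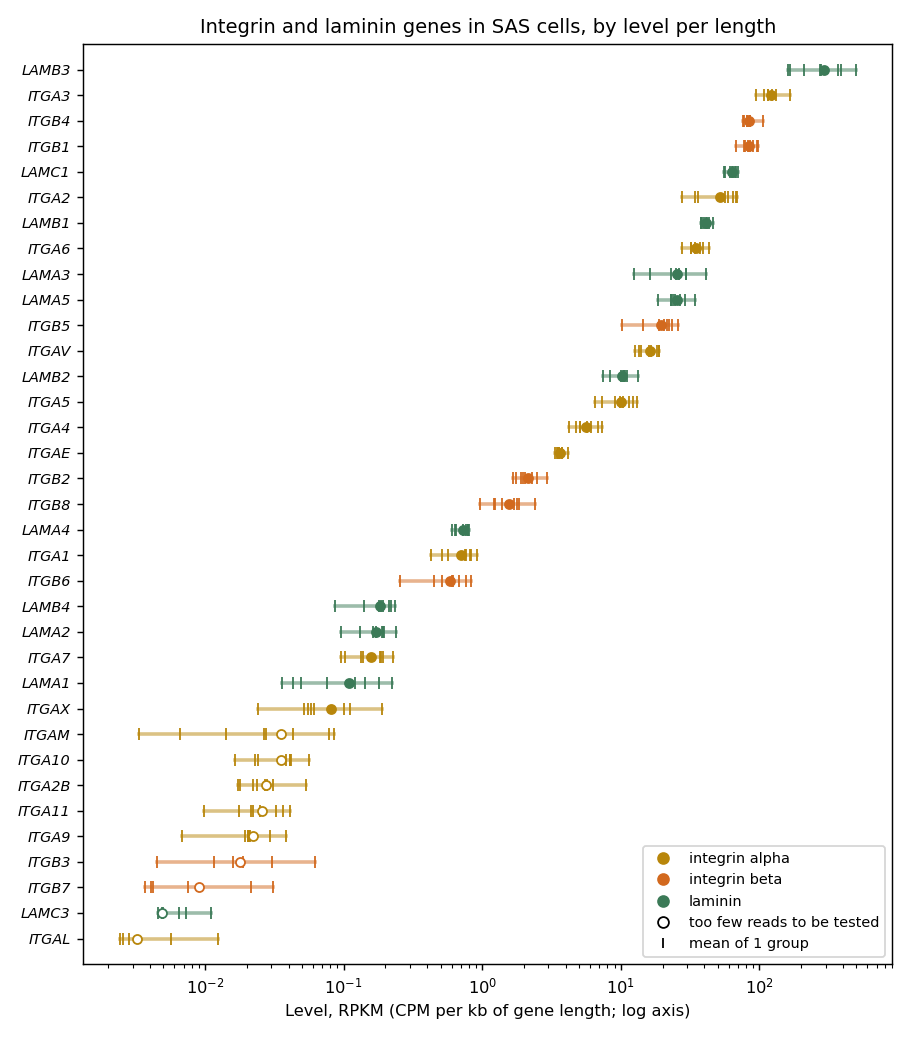
Level of 35 genes per length in RPKM on a log axis; the circle is the mean of 24 libraries, ticks are means of the 8 groups, and open circles mark genes with too few reads to be tested. LAMB3 (292 RPKM) leads, ITGA3 (121 RPKM) is the highest integrin, and the lowest rows hold most subunits of leukocyte and platelet integrins; ITGA8, ITGAD and group means of 0 are not drawn.

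The 27 genes with enough reads were tested in a fit of all genes, and calls were made under 0.05 after Benjamini-Hochberg adjustment across 15956 genes. Between E79Q and WT cells, 7 of the 27 genes were called higher and 9 lower without treatment, in a comparison where 19.7% of all genes were called. Under CB-839 the counts were 11 higher and 5 lower (15% of all genes), after radiation 4 higher and 6 lower (9.64%), and after both 3 higher and 3 lower (7.26%). The last pair of comparisons gave 16 and 11 called members in place of 10 and 6 without replicate 2 of irradiated E79Q cells under CB-839. Between irradiated and unirradiated cells, 15 genes were called higher and 2 lower in E79Q cells (22.3%), and 10 higher and 4 lower in WT cells (17.9%). Under CB-839, radiation gave 8 higher and 3 lower in E79Q cells (29.2%), and 11 higher and 2 lower in WT cells (23.7%). Between CB-839 and vehicle, 8 genes were called higher and 4 lower in unirradiated E79Q cells (19.8%), and 5 higher and 8 lower in unirradiated WT cells (14.8%). In irradiated cells the drug gave 3 higher and 6 lower in E79Q cells (26%), and 2 higher and 3 lower in WT cells (9.53%), or 3 members in all without replicate 3 of irradiated WT cells. Of the 27 members, 20 averaged at least 10 CPM, and genes at that level were called more often than all genes. Among the 9024 genes of at least 10 CPM, a level chosen after the values were seen, 25.9% of genes and 12 of 20 members were called between untreated E79Q and WT cells. In the same set, radiation without CB-839 in E79Q cells gave 28.8% of genes and 15 of 20 members, and radiation with CB-839 in E79Q cells gave 42.5% of genes and 11 of 20 members. The median log2 change of the 27 members between irradiated and unirradiated cells was 0.31 in E79Q cells and 0.29 in WT cells without the drug, against 0.020 and 0.0040 over all genes. Under CB-839 it was 0.092 in E79Q cells and 0.37 in WT cells, against -0.0042 and -0.0026 over all genes. The median log2 change between untreated E79Q and WT cells was -0.028, against -0.0068 over all genes, with 7 members called higher and 9 lower.

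**Figure D2:**
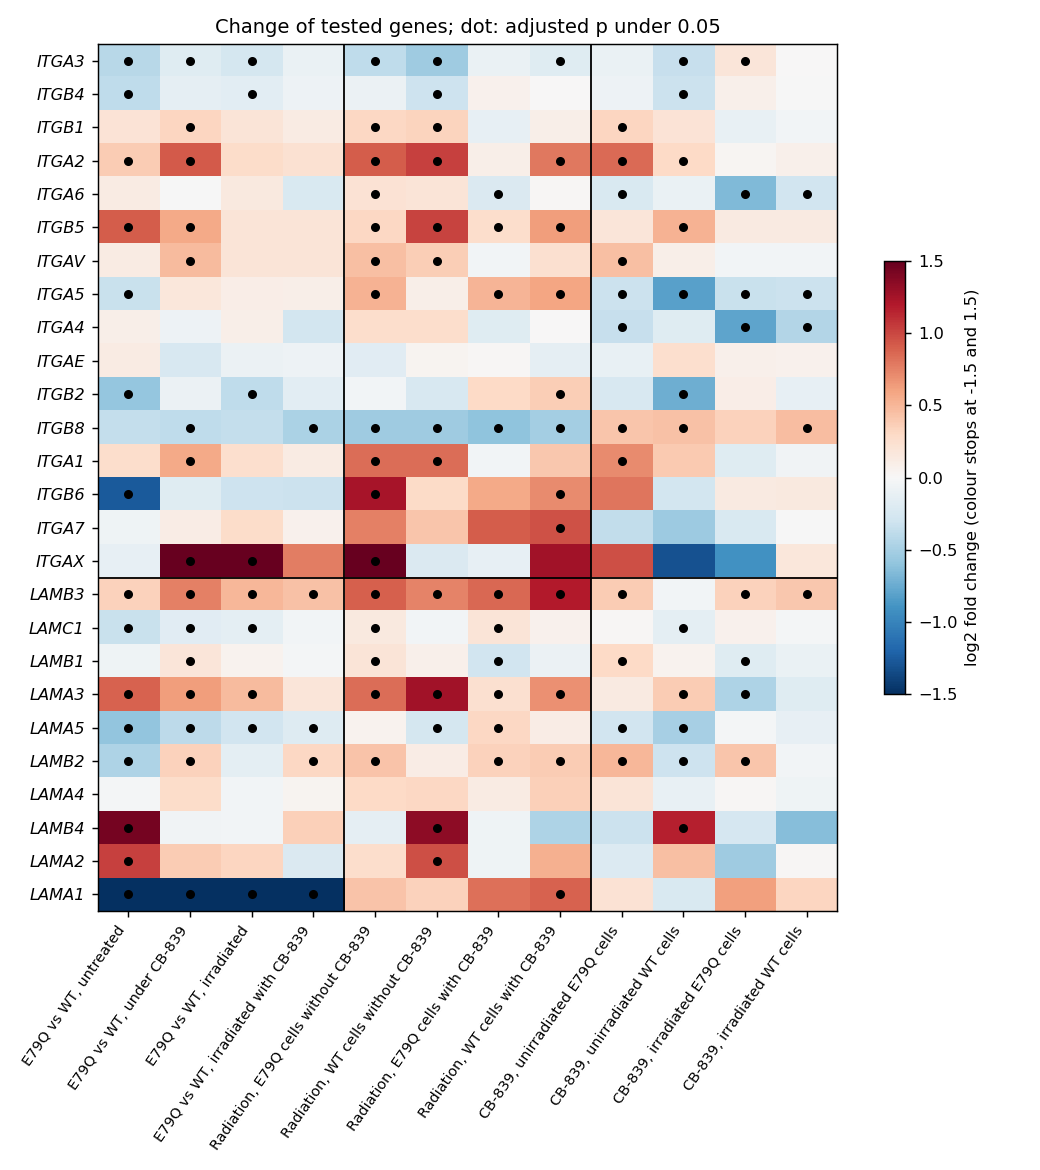
Log2 fold change of 26 tested genes (rows, integrins above laminins, each by falling level per length) in 12 comparisons (columns: E79Q against WT, irradiated against unirradiated, CB-839 against vehicle); a dot marks an adjusted p under 0.05. LAMB3 and LAMA3 are red in all genotype and radiation columns, LAMA5 and LAMA1 are blue in all genotype columns, and ITGA5 is blue in the 4 drug columns.

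LAMB3, the beta chain of laminin-332, was called higher in E79Q than in WT cells in all 4 treatments, and LAMA3, the alpha chain, in 3 of them. Both were called higher in irradiated than in unirradiated cells in all 4 radiation comparisons. LAMA3 (ENSG00000053747, GRCh38 chromosome 18, 23689443 to 23956222, plus strand), which encodes the chain that integrins bind, had 325, 341 and 339.9 CPM in the libraries of untreated E79Q cells, against 172, 179 and 195 CPM in those of untreated WT cells. Under CB-839 it had 363, 379 and 361 CPM in E79Q cells, against 249, 240.1 and 224 CPM in WT cells. After radiation it had 586, 597 and 620.1 CPM in E79Q cells, against 419.6, 432 and 451 CPM in WT cells. Every E79Q library lay above every WT library in these 3 treatments. With radiation and CB-839 it had 487, 356 and 462 CPM in E79Q cells, against 359, 402 and 387 CPM in WT cells, and the groups overlapped through replicate 2. The log2 fold change of E79Q against WT was 0.88 ± 0.076 (standard error) untreated, with an edgeR adjusted p of 1.00e-09. It was 0.63 ± 0.075 under CB-839 and 0.47 ± 0.074 after radiation, with adjusted p values of 4.80e-07 and 5.24e-05 (edgeR). With both treatments it was 0.18 ± 0.074 (edgeR adjusted p = 0.15), and 0.31 (edgeR adjusted p = 0.000101) without replicate 2. In these bulk samples, fewer cells that express a gene and less RNA per cell cannot be told apart.

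LAMB3 (ENSG00000196878, GRCh38 chromosome 1, 209614870 to 209652466, minus strand), the beta 3 chain, was the most abundant member and was called higher in E79Q cells in all 4 treatments. Untreated E79Q cells had 1042, 986 and 918 CPM, against 757, 762 and 801 CPM in untreated WT cells. E79Q cells under CB-839 had 1304, 1240.5 and 1284 CPM, against 768, 739 and 755 CPM in WT cells. Irradiated E79Q cells had 1808, 1837 and 1848 CPM, against 1265, 1342 and 1275 CPM in irradiated WT cells. With radiation and CB-839 the E79Q libraries had 2160.2, 2437 and 2356 CPM and the WT libraries 1773, 1693 and 1679 CPM. The groups did not overlap in any treatment, and the level was highest with both treatments in each genotype. The log2 fold changes of E79Q against WT were 0.34 ± 0.047 untreated, 0.76 ± 0.047 under CB-839, 0.50 ± 0.047 after radiation and 0.43 ± 0.047 with both (edgeR adjusted p at most 3.78e-06).

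**Figure D3:**
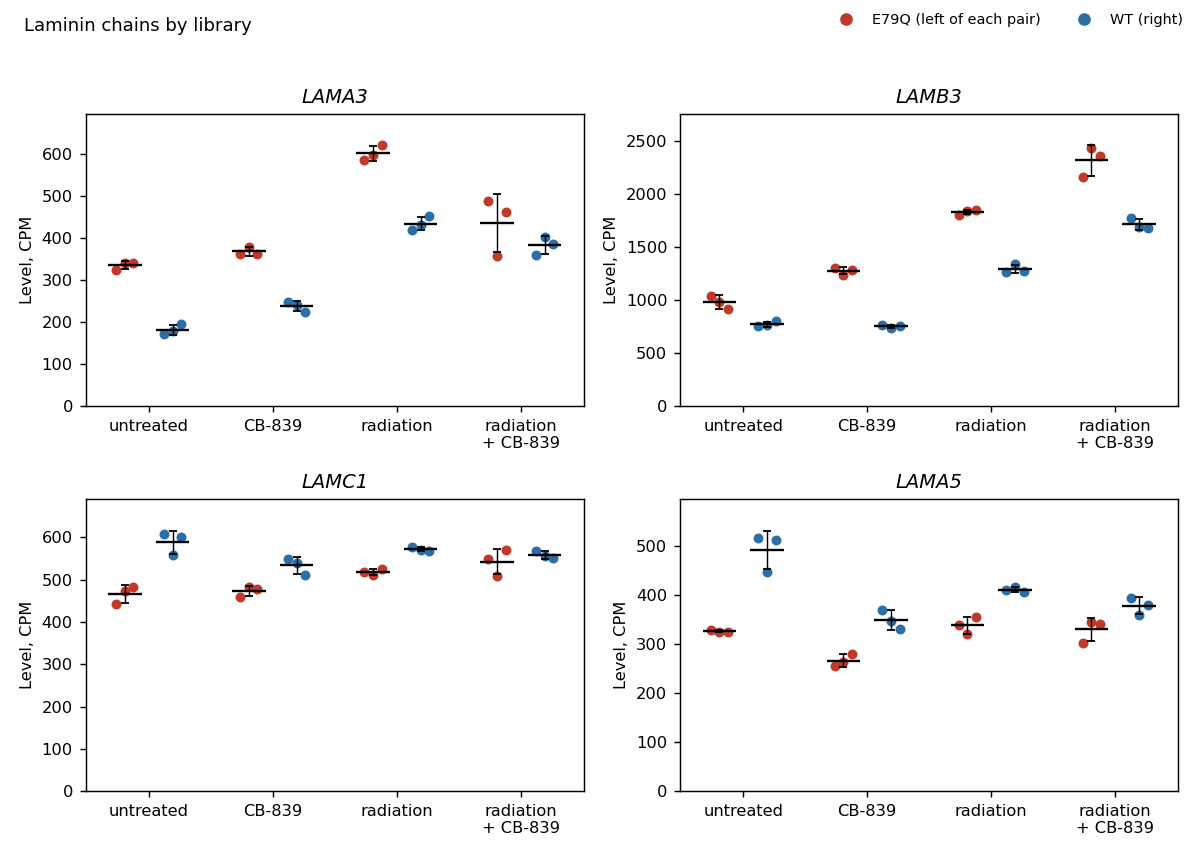
Level in CPM (y axes, from 0) of LAMA3 and LAMB3 of laminin-332, and of LAMC1 and LAMA5, in each of 24 libraries; points are libraries, black lines group means and bars SD (n = 3), with E79Q left of WT in each treatment. LAMA3 and LAMB3 sit higher in untreated E79Q than in untreated WT libraries (LAMA3 325 to 341 CPM against 172 to 195 CPM), and LAMA5 sits lower (325 to 329 CPM against 447 to 518 CPM).

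Radiation came with higher levels of LAMA3 and LAMB3. The log2 fold change of LAMA3 between irradiated and unirradiated cells was 0.84 ± 0.075 in E79Q cells and 1.26 ± 0.076 in WT cells (edgeR adjusted p = 2.89e-09 and 1.68e-12). For LAMB3 it was 0.90 ± 0.047 in E79Q cells and 0.74 ± 0.047 in WT cells. Under CB-839, LAMB3 changed by 0.86 ± 0.047 in E79Q cells and 1.19 ± 0.048 in WT cells. LAMA3 changed by 0.24 ± 0.075 in E79Q cells, where the irradiated and unirradiated libraries overlapped through replicate 2, and by 0.69 ± 0.075 in WT cells (edgeR adjusted p = 0.0158 and 1.23e-07). The call in E79Q cells was lost without replicate 1 or replicate 3 of irradiated E79Q cells under CB-839 (adjusted p up to 0.0895) and in a fit of the 2 groups alone. Without replicate 2 of that group the change was 0.37 (edgeR adjusted p = 4.95e-06). The series text describes only the 12 irradiated samples of the 24. Whether the unirradiated libraries were made alongside them is not stated, so radiation and a batch cannot be told apart here. Under CB-839 LAMA3 and LAMB3 did not move together. In irradiated cells LAMB3 was higher under the drug in both genotypes (log2 fold change 0.34 ± 0.047 in E79Q and 0.41 ± 0.047 in WT cells), while LAMA3 was lower under it in irradiated E79Q cells (log2 fold change -0.47 ± 0.074, edgeR adjusted p = 4.45e-05, and -0.34 without replicate 2). In unirradiated WT cells LAMA3 was higher under the drug (log2 fold change 0.39 ± 0.076, edgeR adjusted p = 6.63e-04), where that of LAMB3 was -0.036 ± 0.047.

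The promoter windows of LAMB3 and LAMA3 are shown because both genes were called higher in all 4 radiation comparisons and in E79Q cells in at least 3 of 4 treatments, beside that of LAMA5, which was called lower in E79Q cells in all 4. The windows span 250 bases before to 50 after a start site of RefSeq on GRCh38.p14. They were searched on both strands for TGACTCA (the AP-1 motif), TGACNNNGC (the core of the antioxidant response element) and GGAATG (the TEAD motif). Capitals mark a match to the AP-1 motif, read on the strand of the gene, so that a match on the other strand appears as TGAGTCA.
LAMB3, chr1:209651325-209651624, minus strand: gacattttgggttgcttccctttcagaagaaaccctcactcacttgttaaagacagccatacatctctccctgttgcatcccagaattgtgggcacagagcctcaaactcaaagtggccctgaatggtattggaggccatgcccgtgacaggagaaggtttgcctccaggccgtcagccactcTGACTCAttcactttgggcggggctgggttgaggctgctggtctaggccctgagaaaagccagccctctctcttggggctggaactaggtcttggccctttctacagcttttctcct
LAMA3, chr18:23872770-23873069, plus strand: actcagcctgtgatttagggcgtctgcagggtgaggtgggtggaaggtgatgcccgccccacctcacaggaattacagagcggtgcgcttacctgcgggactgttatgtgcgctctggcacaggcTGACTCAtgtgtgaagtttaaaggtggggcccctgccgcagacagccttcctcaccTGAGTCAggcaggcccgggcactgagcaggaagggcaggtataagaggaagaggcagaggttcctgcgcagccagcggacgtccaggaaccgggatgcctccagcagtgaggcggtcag
LAMA5, chr20:62367263-62367562, minus strand: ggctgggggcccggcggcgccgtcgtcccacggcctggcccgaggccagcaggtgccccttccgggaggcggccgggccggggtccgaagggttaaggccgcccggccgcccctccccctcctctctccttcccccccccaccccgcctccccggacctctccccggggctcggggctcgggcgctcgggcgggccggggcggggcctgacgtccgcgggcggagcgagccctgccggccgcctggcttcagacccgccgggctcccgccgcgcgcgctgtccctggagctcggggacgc
The LAMB3 window had 1 AP-1 match, which starts 67 bases before a start site that lies 1092 bases inside the gene, and the other 2 windows of LAMB3 had none. The LAMA3 window, added after its values were seen, had 2 AP-1 matches, 125 and 69 bases before a start site that lies 183577 bases inside the gene. Counts per gene do not separate the transcripts of these start sites. The LAMA5 window held none of the 3 motifs. Of 35116 windows of the same length, 4.95% held the AP-1 motif, 13.3% the core of the antioxidant response element and 14% the TEAD motif. Of the 33 windows of members in the table, 3 (LAMB3, LAMA3 and ITGA5), 4 (ITGB5, ITGA1, ITGA8 and ITGB1) and 4 (ITGA10, LAMA2, ITGB1 and ITGA5) held them, in the same order. LAMA1 is named here without a sequence.

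LAMA5 and LAMA1 were the 2 members called lower in E79Q cells in all 4 treatments. LAMA5 (ENSG00000130702, GRCh38 chromosome 20, 62307955 to 62367312, minus strand), the alpha chain of laminin-511 and laminin-521, had 329, 326 and 325 CPM in untreated E79Q cells, against 518, 447 and 513 CPM in untreated WT cells. Under CB-839 it had 255, 265 and 280.2 CPM in E79Q cells, against 371, 347 and 332 CPM in WT cells. LAMA5 differed between E79Q and WT cells by a log2 fold change of -0.59 ± 0.06 untreated, -0.39 ± 0.06 under CB-839, -0.28 ± 0.06 after radiation and -0.20 ± 0.06 with both (edgeR adjusted p from 2.32e-08 to 0.0445). No E79Q library reached the lowest WT library in any treatment. With both treatments the call was lost in 11 of the 24 omissions of 1 library (adjusted p up to 0.151). The LAMA5 gene overlaps ADRM1, which lies on the other strand and had 51.2% of its CPM, and the strand setting of the counting is not given in the sources used here. The number of LAMA3 reads per LAMA5 read was 1.03 ± 0.0343 in untreated E79Q cells and 0.370 ± 0.0351 in untreated WT cells (SD, n = 3 each). Under CB-839 it was 1.38 ± 0.0792 in E79Q and 0.679 ± 0.0112 in WT cells, and after radiation 1.78 ± 0.0741 in E79Q and 1.06 ± 0.0461 in WT cells. With both it was 1.33 ± 0.289 in E79Q and 1.01 ± 0.103 in WT cells, a difference within the spread of the E79Q libraries. LAMA1, the alpha chain of the early embryonic laminin-111, was scarce: it had 1.09, 0.235 and 0.396 CPM in untreated E79Q cells, against 2.53, 2.12 and 2.1 CPM in untreated WT cells. Its log2 fold change of E79Q against WT was -1.94 ± 0.37 untreated, -1.85 ± 0.33 after radiation and -1.56 ± 0.31 with both, and it was also called lower under CB-839 (edgeR adjusted p at most 0.0061), on 4 to 84 reads a library.

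The beta 1 and gamma 1 chains moved less, and LAMB2 (beta 2) moved in opposite directions by treatment. The highest group mean was 1.23 times the lowest for LAMB1, 1.26 times for LAMC1 and 1.78 times for LAMB2, against 1.85 times for LAMA5. LAMC1 (gamma 1, GRCh38 chromosome 1, 183023460 to 183145592, plus strand) averaged 466 ± 20.6 CPM in untreated E79Q cells and 588 ± 27.3 CPM in untreated WT cells (SD, n = 3 each). Its log2 fold change of E79Q against WT was -0.34 ± 0.047 (edgeR adjusted p = 5.03e-06). LAMC1 was also called lower in E79Q cells under CB-839 and after radiation. These calls were lost in 2 and 14 of the 24 omissions of 1 library, with adjusted p up to 0.0584 and 0.158. LAMB2 (GRCh38 chromosome 3, 49121114 to 49133118, minus strand), the beta chain of laminin-521 and of synaptic and kidney basement membranes, had 50.2, 53.4 and 50.1 CPM in untreated E79Q cells, against 73.4, 63.3 and 75.1 CPM in untreated WT cells. Under CB-839 the order was turned, with 70.5, 76.2 and 70.3 CPM in E79Q cells, against 60.6, 54.7 and 55.2 CPM in WT cells. The groups did not overlap in either treatment. For LAMB2, E79Q against WT gave a log2 fold change of -0.46 ± 0.068 untreated and 0.35 ± 0.068 under CB-839 (edgeR adjusted p = 1.07e-05 and 5.38e-04). It was -0.15 ± 0.066 after radiation (adjusted p = 0.178) and 0.31 ± 0.066 with both (adjusted p = 0.00295, edgeR), the last not called in a fit of the 2 groups alone. LAMB1 (beta 1) stayed between 309 ± 13.2 CPM in untreated E79Q cells and 378 ± 14.1 CPM in E79Q cells under CB-839 as lowest and highest group means, a drug effect of 0.29 ± 0.059 on the log2 scale (edgeR adjusted p = 6.48e-04). LAMB1 overlaps DLD on the other strand, which had 44.4% of its CPM.

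Of the scarce chains, LAMA2 (alpha 2, the main laminin alpha chain of muscle) had 2.45, 1.82 and 1.81 CPM in untreated E79Q cells, against 0.989, 1.09 and 0.908 CPM in untreated WT cells, with no overlap (log2 fold change 1.02 ± 0.26, edgeR adjusted p = 0.00507). LAMB4 had 1.9, 1.35 and 1.64 CPM in untreated E79Q cells, against 0.385, 0.688 and 0.738 CPM in untreated WT cells (log2 fold change 1.43 ± 0.32, edgeR adjusted p = 0.00182). Both were lowest in untreated WT cells: their means in the other 7 groups were 1.36 to 2.46 CPM for LAMA2 and 0.986 to 1.63 CPM for LAMB4. LAMA4, the alpha chain of endothelial basement membranes, ranged from 6.95 to 9.3 CPM in group means and was called in none of the 16 comparisons (edgeR; 2 of them at an unadjusted p under 0.05, and 0 called with DESeq2). Radiation in WT cells under CB-839 was a call of LAMA4 without replicate 2 of irradiated E79Q cells under CB-839 (edgeR adjusted p = 0.0443).

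Among the receptors of laminin, ITGA3 and ITGB4 were lower in untreated E79Q than in untreated WT cells. ITGA3 (ENSG00000005884, GRCh38 chromosome 17, 50055968 to 50090481, plus strand), the alpha 3 subunit that binds laminin-332 and laminin-511, had 1253, 1193 and 1193 CPM in untreated E79Q cells, against 1656, 1565 and 1647 CPM in untreated WT cells. After radiation it had 939, 903 and 953 CPM in E79Q cells, against 1123, 1137 and 1101 CPM in WT cells. The E79Q libraries lay below the WT libraries in both treatments, and irradiated cells lay below unirradiated cells of their genotype. ITGA3 gave log2 fold changes of E79Q against WT of -0.42 ± 0.049 untreated and -0.27 ± 0.05 after radiation (edgeR adjusted p = 3.35e-07 and 4.00e-04). Between irradiated and unirradiated cells it was -0.38 ± 0.05 in E79Q and -0.53 ± 0.05 in WT cells (edgeR adjusted p = 1.77e-06 and 5.90e-09). ITGB4 (GRCh38 chromosome 17, 75721328 to 75757818, plus strand), the beta 4 subunit of hemidesmosomes, had 564, 548 and 529 CPM in untreated E79Q cells, against 721, 692 and 725 CPM in untreated WT cells (log2 fold change -0.38 ± 0.05, edgeR adjusted p = 2.06e-06). In the other 7 groups its mean ran from 516 to 575 CPM, so that untreated WT cells stood above all others. Its partner ITGA6 did not pass the test in any genotype comparison, with log2 fold changes from -0.23 to 0.14 (edgeR; 1 of the 4 at an unadjusted p under 0.05). It was called higher in E79Q cells after radiation without replicate 2 of irradiated E79Q cells under CB-839 (0.14, edgeR adjusted p = 0.0411). ITGA6 was lower under CB-839 in irradiated E79Q cells, with 197, 147 and 194 CPM under CB-839, against 285, 281 and 283 CPM with vehicle (log2 fold change -0.66 ± 0.074, edgeR adjusted p = 2.93e-07). All 3 treated libraries lay below all 3 vehicle libraries, replicate 2 farthest, and the change was -0.53 without replicate 2. ITGB1, the beta subunit shared by most of these receptors, averaged 584 ± 5.62 CPM in E79Q and 467 ± 19.5 CPM in WT cells under CB-839 (log2 fold change 0.33 ± 0.08, edgeR adjusted p = 0.00547). It was also higher in irradiated than in unirradiated cells of both genotypes without the drug (log2 fold change 0.31 ± 0.08 in E79Q and 0.33 ± 0.081 in WT cells). Without replicate 2 of irradiated E79Q cells under CB-839, ITGB1 was also called higher in E79Q than in WT cells in the other treatments. These log2 fold changes were 0.21 untreated, 0.19 after radiation and 0.26 with both (edgeR adjusted p = 0.00148, 0.00626 and 0.00115).

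The collagen receptor subunit ITGA2 was called higher in E79Q cells without radiation, higher after radiation in 3 of 4 comparisons, and higher under CB-839 in unirradiated cells of both genotypes. The drug call in WT cells was lost in 4 of the 24 omissions of 1 library (adjusted p up to 0.143). Without replicate 2 of irradiated E79Q cells under CB-839, the fourth radiation comparison (log2 fold change 0.26, edgeR adjusted p = 0.00398) and the drug in irradiated E79Q cells (0.19, adjusted p = 0.0354) were also called, against 0.092 and 0.026 with it. ITGA2 (ENSG00000164171, GRCh38 chromosome 5, 52989326 to 53094779, plus strand) had 283, 301 and 269.5 CPM in untreated E79Q cells, against 215, 204 and 236 CPM in untreated WT cells. Under CB-839 it had 508, 528 and 499 CPM in E79Q cells, against 280.3, 274 and 254 CPM in WT cells. After radiation it had 535, 545 and 528 CPM in E79Q cells, against 422, 437 and 472 CPM in WT cells. The E79Q libraries were above the WT libraries each time, and the gap was widest under CB-839. For ITGA2, E79Q against WT gave a log2 fold change of 0.38 ± 0.10 untreated and 0.92 ± 0.10 under CB-839 (edgeR adjusted p = 0.00551 and 4.88e-08), while the 0.27 ± 0.10 after radiation did not pass the test (edgeR adjusted p = 0.0776, and 0.000921 without that replicate 2, which enters here through the shared spread). Between irradiated and unirradiated cells without the drug it was 0.91 ± 0.10 in E79Q and 1.02 ± 0.10 in WT cells (edgeR adjusted p = 6.99e-08 and 9.66e-09). With radiation and CB-839 the E79Q libraries had 647, 414 and 575 CPM, replicate 2 being the lowest, and the WT libraries 418, 493 and 488 CPM. The log2 fold change there was 0.23 ± 0.10 (edgeR adjusted p = 0.178), and 0.39 (edgeR adjusted p = 5.19e-05) without replicate 2. ITGA1, the other collagen receptor alpha subunit, is its neighbour on chromosome 5. It averaged 17 ± 1.97 CPM in irradiated and 9.49 ± 0.519 CPM in untreated E79Q cells, and 14.3 ± 1.75 CPM in irradiated and 7.93 ± 0.726 CPM in untreated WT cells (log2 fold change 0.84 ± 0.15 in E79Q and 0.84 ± 0.16 in WT cells, edgeR adjusted p = 1.68e-04 and 3.05e-04). PELO, which lies within ITGA1 on the same strand, had a higher CPM than ITGA1, and reads in both could not be assigned from the counts alone.

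Of the RGD-binding subunits, ITGB5 was higher in unirradiated E79Q cells and after radiation in all 4 comparisons, ITGA5 was lower under CB-839 in all 4 comparisons, and ITGB8 was lower after radiation in all 4. ITGB5 (ENSG00000082781, GRCh38 chromosome 3, 124761948 to 124901418, minus strand), which pairs with alpha v to bind vitronectin, had 125, 117 and 123 CPM in untreated E79Q cells, against 63.6, 64.8 and 67 CPM in untreated WT cells. Under CB-839 it had 147, 134 and 133 CPM in E79Q cells, against 88.9, 96.9 and 94.2 CPM in WT cells. After radiation it had 149, 147 and 157 CPM in E79Q cells, against 132, 142 and 121 CPM in WT cells. Every E79Q library lay above every WT library in each of these treatments. ITGB5 gave log2 fold changes of E79Q against WT of 0.90 ± 0.068 untreated, 0.56 ± 0.066 under CB-839, 0.20 ± 0.065 after radiation and 0.20 ± 0.065 with both, with edgeR adjusted p of 7.22e-11, 3.59e-07, 0.0519 and 0.0643. The value after radiation was also called without replicate 2 of irradiated E79Q cells under CB-839 (adjusted p = 0.0142). Between irradiated and unirradiated cells without the drug it was 0.31 ± 0.065 in E79Q and 1.01 ± 0.067 in WT cells (edgeR adjusted p = 8.99e-04 and 9.36e-12). ITGAV, its alpha partner, was called higher in E79Q than in WT cells only under CB-839 among the 4 treatments, at 155 ± 4.69 and 111 ± 3.32 CPM (log2 fold change 0.48 ± 0.11, edgeR adjusted p = 0.00293). Without replicate 2 of irradiated E79Q cells under CB-839 it was also called with both treatments (log2 fold change 0.39, edgeR adjusted p = 0.000102, against 0.19 and 0.34 with it) and after radiation (adjusted p = 0.0283, against 0.336).

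ITGA5 (ENSG00000161638, GRCh38 chromosome 12, 54395261 to 54419460, minus strand), the alpha 5 subunit of the main fibronectin receptor, had 54.7, 54.9 and 56.6 CPM in E79Q cells under CB-839, against 72.8, 69.4 and 65.5 CPM in untreated E79Q cells. In WT cells it had 49.99, 49.9 and 48.5 CPM under CB-839, against 82.7, 87.8 and 91.1 CPM untreated. Treated and untreated libraries were apart in both genotypes, and untreated WT cells were above untreated E79Q cells. The log2 fold change under the drug was -0.32 ± 0.068 in E79Q and -0.82 ± 0.068 in WT cells without radiation, and -0.33 ± 0.065 in E79Q and -0.32 ± 0.066 in WT cells with it (edgeR adjusted p at most 0.00238). ITGB8 (GRCh38 chromosome 7, 20330702 to 20415754, plus strand), a partner of alpha v that takes part in activating latent TGF-beta, had 15.2, 13.3 and 15.1 CPM in irradiated E79Q cells, against 21.8, 21.6 and 19.8 CPM in untreated E79Q cells. In WT cells it had 18.5, 17.6 and 19.96 CPM after radiation, against 29, 24.4 and 27.8 CPM untreated. The irradiated libraries were below the unirradiated ones in both genotypes. The log2 fold change with radiation was -0.53 ± 0.14 in E79Q and -0.53 ± 0.13 in WT cells without CB-839, and -0.61 ± 0.13 in E79Q and -0.51 ± 0.13 in WT cells with it (edgeR adjusted p at most 0.00559). The last was lost without replicate 1 of WT cells under CB-839 (adjusted p = 0.0596). Under CB-839 ITGB8 was called higher in 3 of 4 comparisons, and each of these calls was lost in 2 to 5 of the 24 omissions of 1 library (adjusted p up to 0.184, without replicate 1 of WT cells under CB-839). The fourth, in irradiated E79Q cells, was also called without replicate 2 of irradiated E79Q cells under CB-839 (log2 fold change 0.51, edgeR adjusted p = 0.00333, against 0.34 and 0.071 with it). ITGB6, an epithelial partner of alpha v, was scarce, with 1.36, 0.882 and 1.36 CPM in untreated E79Q cells, against 2.31, 2.98 and 3.4 CPM in untreated WT cells (log2 fold change -1.26 ± 0.27, edgeR adjusted p = 0.00133).

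**Figure D4:**
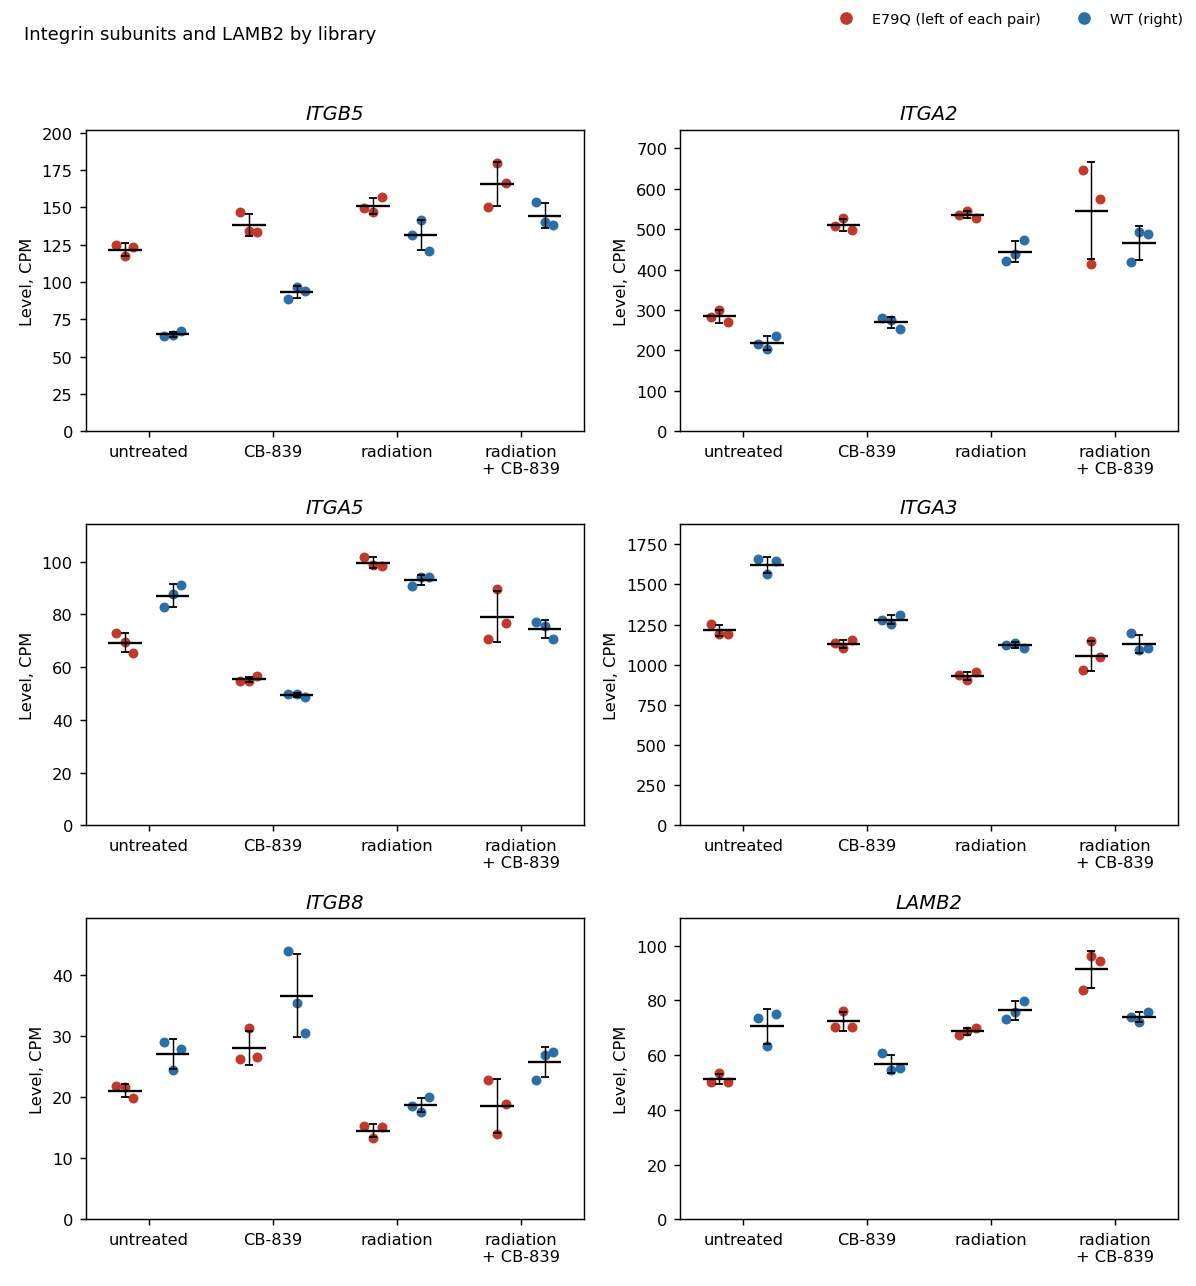
Level in CPM (y axes, from 0) of ITGB5, ITGA2, ITGA5, ITGA3, ITGB8 and LAMB2 in each of 24 libraries; points are libraries, black lines group means and bars SD (n = 3), with E79Q left of WT in each treatment. ITGB5 is lowest in untreated WT cells (63.6 to 67 CPM), ITGB8 falls after radiation in both genotypes, and the order of the genotypes in LAMB2 turns between untreated cells (50.1 to 53.4 CPM in E79Q, 63.3 to 75.1 CPM in WT) and cells under CB-839.

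The remaining subunits are those known from leukocytes, platelets or muscle. ITGB2, the shared beta subunit of leukocyte integrins, had 12.9, 11.2 and 15.9 CPM in untreated E79Q cells, against 18.5, 22.2 and 19.1 CPM in untreated WT cells (log2 fold change -0.58 ± 0.12, edgeR adjusted p = 8.27e-04). Its alpha partners were nearly absent, with ITGAL at 9 and ITGAM at 93 reads over the 24 libraries. ITGAX had 262 reads in all, with 1.61, 1.4 and 1 CPM in irradiated E79Q cells, against 0.557, 0.305 and 0.239 CPM in irradiated WT cells (log2 fold change 1.84 ± 0.43, edgeR adjusted p = 0.00428). Of the 8 leukocyte markers, PTPRC had 2 reads and CD3E 1 read in all 24 libraries together. The summed level of the 8 markers was 40.8 to 45.4 CPM in irradiated E79Q cells and 32.3 to 33.4 CPM in irradiated WT cells, most of it LAPTM5 (34.7 and 26.3 CPM in the mean). The part of leukocyte markers in the ITGAX and ITGB2 values was not tested. ITGA4, a subunit of receptors of fibronectin and VCAM1, was lower under CB-839 in irradiated E79Q cells, with 38.7, 25.2 and 36.2 CPM, against 55.2, 59.6 and 58.2 CPM with vehicle (log2 fold change -0.79 ± 0.10, edgeR adjusted p = 2.15e-06, and -0.62 without replicate 2). ITGAE, the partner of beta 7 that binds E-cadherin, ranged only from 22.4 to 27.5 CPM in group means and was called in none of the 16 comparisons (edgeR; 3 of them at an unadjusted p under 0.05). DESeq2, and edgeR without replicate 2 of irradiated E79Q cells under CB-839, called it in 2, the effect of CB-839 in unirradiated WT cells and the genotype difference in it. HASPIN, within ITGAE on the other strand, had a CPM above that of ITGAE. ITGA7, of the laminin receptor of muscle, had 452 reads in all and was called in 1 comparison, radiation in WT cells under CB-839, a call lost in 17 of the 24 omissions of 1 library. ITGA2B and ITGB3, the platelet integrin, had 69 and 37 reads over the 24 libraries, and the platelet markers PF4 and PPBP had 0. ITGA11, a collagen receptor of fibroblasts, had 0.109, 1.06 and 0.17 CPM in untreated E79Q cells, against 0.55, 0.401 and 0.113 CPM in untreated WT cells. Replicate 2 of untreated E79Q cells was the highest, and the summed level of 7 fibroblast markers in that library was 49.4 CPM, against 8.98 and 7.87 CPM in the other 2. Of these markers, the collagens COL1A1, COL1A2 and COL3A1 averaged 14.4, 5.56 and 1.31 CPM in untreated E79Q cells. These means were raised by replicate 2, which had 29.5, 15.3 and 3.94 CPM. PDGFRB, PDGFRA, DCN and LUM averaged at most 0.43 CPM there.

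The effect of radiation on 3 members, without CB-839, differed between the genotypes (1.26% of all genes did). ITGB5 changed by 0.70 less on the log2 scale in E79Q than in WT cells (difference -0.70 ± 0.094, edgeR adjusted p = 5.04e-05). ITGA5 changed more in E79Q cells, by 0.53 ± 0.066 against 0.093 ± 0.065 in WT cells (difference 0.43 ± 0.093, edgeR adjusted p = 0.0125). LAMA3 changed less in E79Q cells (difference -0.41 ± 0.11, edgeR adjusted p = 0.0479), a call lost in 15 of the 24 omissions of 1 library. Without replicate 2 of irradiated E79Q cells under CB-839, 6 members were called in place of 3. Without 4 libraries that include that one, 7 members were called, and 539 of all genes in place of 201. Under CB-839 the radiation effect of 4 members differed (1.08% of all genes). It was smaller in E79Q cells for ITGA2 (0.092 ± 0.10 against 0.79 ± 0.10 in WT cells, difference -0.70 ± 0.14, edgeR adjusted p = 0.00602), LAMB3, LAMA3 and ITGB5. Without replicate 2 of irradiated E79Q cells under CB-839, the effect on ITGA2 in E79Q cells was 0.26 and the difference -0.53, both called. The ITGB5 difference (edgeR adjusted p = 0.049) was lost in 21 of the 24 omissions of 1 library, with RLE scaling, with no filter and with a replicate block. The LAMA3 difference was lost in 6 of the omissions, and 2 members were called in place of 4 in 6 of the 24. None of the 4 was called in a fit of those 4 groups alone.

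The effect of CB-839 without radiation differed between the genotypes for 9 members (14.3% of all genes), 7 with a higher value in E79Q cells. LAMB2 was higher under the drug in E79Q cells (log2 fold change 0.50 ± 0.068) and lower under it in WT cells (-0.31 ± 0.068), a difference of 0.81 ± 0.10 (edgeR adjusted p = 9.88e-07). The drug effect on LAMB3 was 0.38 ± 0.047 in E79Q cells and -0.036 ± 0.047 in WT cells (difference 0.41 ± 0.067, edgeR adjusted p = 7.72e-05). ITGA5 fell less in E79Q than in WT cells (difference 0.50 ± 0.10, edgeR adjusted p = 6.17e-04), and ITGA2 rose more (difference 0.54 ± 0.14, edgeR adjusted p = 0.00758). ITGA3 and ITGB4 fell under the drug in WT cells by 0.34 and 0.32 on the log2 scale. Their changes in E79Q cells were -0.10 and -0.074, and both differences passed the test. Each was lost in 4 of the 24 omissions of 1 library (adjusted p up to 0.0723 for ITGA3 and 0.0616 for ITGB4). Without replicate 2 of irradiated E79Q cells under CB-839, a library of none of these 4 groups that enters through the shared spread, 17 members were called in place of 9. Without 4 libraries that include that one, 13 members were called, and 2951 of all genes in place of 2280. In irradiated cells only LAMB2 passed the test for a difference in the drug effect (1.91% of all genes), at 0.41 ± 0.066 in E79Q cells and -0.044 ± 0.066 in WT cells (difference 0.46 ± 0.093, edgeR adjusted p = 0.00709). There 5 members were called without replicate 1 of irradiated E79Q cells under CB-839, and 2 without replicate 2 or 3 of that group or replicate 3 of WT cells under CB-839. The comparisons of radiation and of the drug within a genotype share their untreated libraries.

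**Figure D5:**
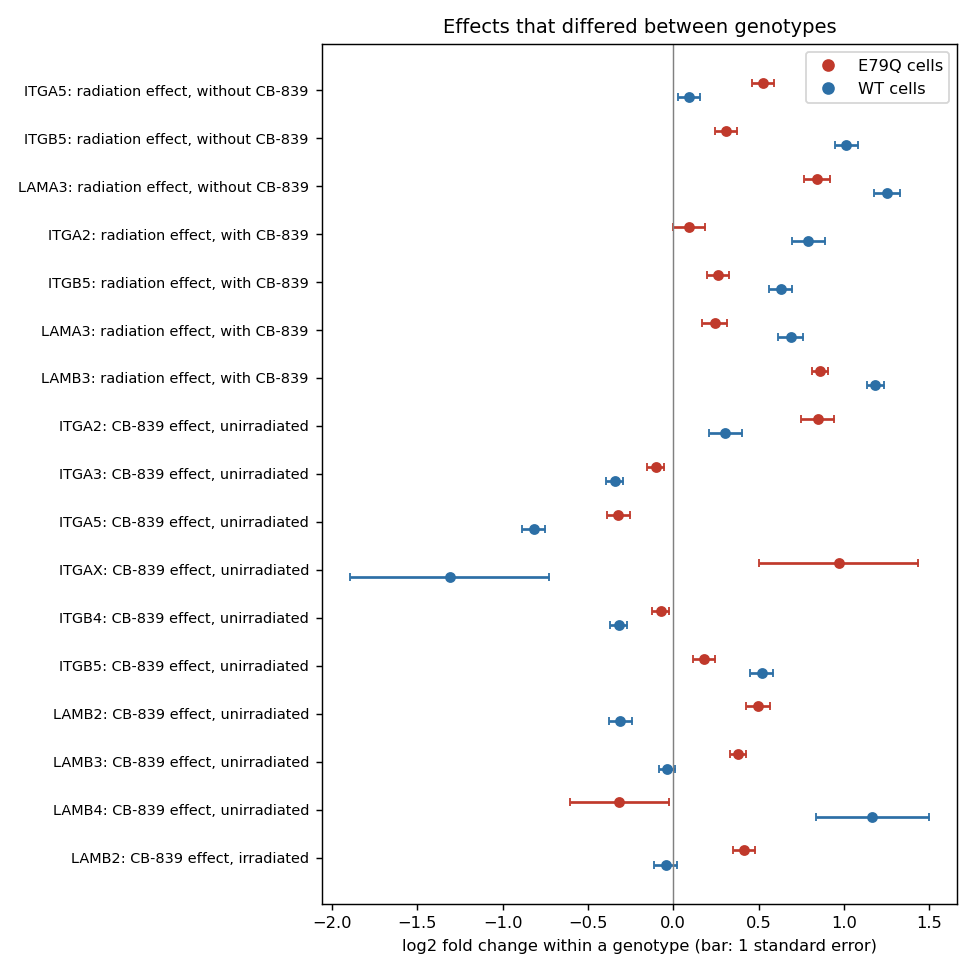
The 17 effects that differed between the genotypes: log2 fold change of radiation or CB-839 in E79Q cells (red, upper point of each row) and in WT cells (blue), with bars of 1 standard error. ITGB5 and LAMA3 change less with radiation in E79Q cells, and LAMB2 changes in opposite directions with CB-839 in unirradiated cells (0.50 in E79Q, -0.31 in WT).

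Genes that work with these receptors were described from 6 lists. Of 35 tested integrin adapters and focal adhesion genes, 11 were called higher and 6 lower in untreated E79Q against WT cells, with a median log2 change of 0.10 against -0.0068 over all genes. This count and those of the other lists in untreated cells stand beside 19.7% of all genes called. TNS4, a tensin that binds beta subunit tails, averaged 312 ± 21.7 CPM in E79Q and 239 ± 7.01 CPM in WT cells, and PTK2B, a kinase related to focal adhesion kinase, averaged 27.2 ± 1.7 CPM in E79Q and 67.1 ± 4.91 CPM in WT cells (edgeR adjusted p = 2.11e-05 and 1.51e-13). Of the 4 tested hemidesmosome partners, PLEC, which encodes the linker plectin, was called higher in untreated E79Q cells, at 2640.5 ± 75.2 CPM in E79Q and 2207 ± 191 CPM in WT cells (edgeR adjusted p = 0.00048), while ITGB4 was lower. DST and CD151 did not pass, with log2 fold changes of 0.42 and 0.059. Of 16 other basement membrane genes, 3 were higher and 7 lower in untreated E79Q cells. COL4A1 and COL4A2, the main collagen IV chains, were among the 3 called higher. COL4A1 averaged 206 ± 7.21 CPM in E79Q and 160.3 ± 5.55 CPM in WT cells, and COL4A2 averaged 376 ± 6.53 CPM in E79Q and 289.96 ± 13.1 CPM in WT cells. HSPG2, which encodes perlecan, averaged 53.5 ± 1.28 CPM in E79Q and 73 ± 7.88 CPM in WT cells. Of the 7 other laminin receptors, 4 were lower and 0 higher in untreated E79Q cells (at an unadjusted p under 0.05, 2 were higher). BCAM, a receptor of the laminin alpha 5 chain, averaged 51.7 ± 2.75 CPM in E79Q and 137 ± 7.86 CPM in WT cells (log2 fold change -1.41 ± 0.062, edgeR adjusted p = 1.03e-15), and LAMA5 was lower in the same cells.

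Of 19 other integrin ligands, 5 were higher and 4 lower in untreated E79Q cells. COL1A1 and COL1A2, which are among those called higher, are also on the list of fibroblast markers. The sum of that list was high in 1 of the 3 untreated E79Q libraries, but it includes both genes and is no separate evidence on them. That library had 29.5 CPM of COL1A1 and 15.3 CPM of COL1A2, against means of 14.4 and 5.56 CPM in untreated E79Q cells. Of the rest of the list, COL3A1 averaged 1.31 CPM in untreated E79Q and 0 CPM in untreated WT cells, and DCN had 1 read in all. COL3A1 was at 0 CPM in 22 of the 24 libraries, and its highest library had 3.94 CPM. PDGFRB averaged 0.43 and 0.50 CPM, PDGFRA 0.34 and 0.38 CPM, and LUM 0 and 0.22 CPM, in the same order. THBS1, which encodes thrombospondin 1, averaged 3788 ± 58.3 CPM in E79Q and 2353 ± 44.9 CPM in WT cells. FN1, which encodes fibronectin, averaged 656 ± 38.4 CPM in E79Q and 822 ± 52.7 CPM in WT cells, and ITGA5 was lower beside it. CTGF, a matricellular protein, averaged 60.1 ± 3.98 CPM in E79Q and 14.2 ± 0.577 CPM in WT cells (log2 fold change 2.08 ± 0.068, edgeR adjusted p = 1.82e-18). Of the 7 genes of TGF-beta activation, 1 was higher and 2 were lower in untreated E79Q cells. With radiation, 12 of the 16 basement membrane genes were higher and 1 lower in E79Q cells, and 7 were higher and 3 lower in WT cells. In the same comparisons 9 and 7 of the 19 ligands were higher, and 5 and 2 were lower. Of the adapters, 7 were higher and 4 lower with radiation in E79Q cells, and 6 were higher and 4 lower in WT cells, of 35. These counts stand beside 22.3% and 17.9% of all genes called with radiation in E79Q and WT cells.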

How the data were processed

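Raw read counts per gene for 24 libraries were deposited by the authors in 1 table of 58735 genes, with gene lengths and coordinates. The submitters' processing notes name STAR, HTSeq and GRCh38; their versions, the strand setting and the annotation are not stated there. All 58735 identifiers and coordinates matched GENCODE release 29. Total RNA was sequenced on an Illumina platform, per the labels' protocols. Groups came from the sample titles, and 3 columns with a shortened name were matched by them. The members, lists, named-gene rule and tests were chosen with earlier results of these data known. Members outside the lists were all eligible to be named; of each list, the 3 tested genes with the smallest p in each direction between untreated E79Q and WT cells could be named. The values of 1 member, which the counts include, are not reported here.

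Genes with enough reads (filterByExpr, 15956 of 34983 with any read) were fitted together in edgeR 4.0.16 (R 4.3.3, limma 3.58.1) with TMM scaling, 1 mean per group, 16 residual degrees of freedom and a biological coefficient of variation of 7.19%. A 2-sided quasi-likelihood F test was adjusted by Benjamini-Hochberg over all genes and called under 0.05. CPM used TMM-scaled library sizes, and RPKM divided CPM by the deposited gene length in kb. On simulated counts with 200 genes changed in untreated E79Q libraries, the test was checked to give the simulated folds in the untreated comparison, in a genotype difference, and no effect where none was made. Library totals of 14285084 to 23640197 set the counting error, and replicates differed by more than it (chi-square per degree of freedom of 2.25 to 32.3), so none was a repeated deposit. Alternatives were DESeq2 1.42.0, RLE scaling, 2 filters, fits of the compared groups alone, a replicate block, offsets for GC content and gene length, and omission of libraries. Promoters were from RefSeq on GRCh38.p14; figures used matplotlib.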

Additional observations from a re-analysis of the deposited data

Results flagged for a closer look

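The effects of radiation or CB-839 listed here differed between the genotypes by the edgeR test of the difference itself (E79Q effect minus WT effect, log2). Without CB-839, the effect of radiation on ITGB5 differed by -0.70 (0.31 in E79Q, 1.01 in WT), on LAMA3 by -0.41 (0.84 in E79Q, 1.26 in WT) and on ITGA5 by 0.43 (0.53 in E79Q, 0.093 in WT). Under CB-839, the effect of radiation differed by -0.70 for ITGA2 (0.092 in E79Q, 0.79 in WT), -0.45 for LAMA3 (0.24 in E79Q, 0.69 in WT), -0.37 for ITGB5 (0.26 in E79Q, 0.63 in WT) and -0.32 for LAMB3 (0.86 in E79Q, 1.19 in WT). The ITGB5 difference under CB-839 was lost in 21 of the 24 omissions of 1 library, and the ITGA2 effect in E79Q cells was 0.26 without replicate 2 of irradiated E79Q cells under CB-839. In unirradiated cells, the effect of CB-839 differed by 0.81 for LAMB2 (0.50 in E79Q, -0.31 in WT), 0.54 for ITGA2 (0.85 in E79Q, 0.30 in WT), 0.50 for ITGA5 (-0.32 in E79Q, -0.82 in WT) and 0.41 for LAMB3 (0.38 in E79Q, -0.036 in WT). It differed by 0.25 for ITGB4 (-0.074 in E79Q, -0.32 in WT), 0.24 for ITGA3 (-0.10 in E79Q, -0.34 in WT) and -0.34 for ITGB5 (0.18 in E79Q, 0.52 in WT). The scarce ITGAX and LAMB4 differed by 2.28 (0.97 in E79Q, -1.31 in WT) and -1.48 (-0.32 in E79Q, 1.17 in WT). Neither was called without the 4 libraries, named below, whose deviations had the highest positive correlations with GC content. Neither was called with no filter. The ITGAX difference was also lost in 8 and the LAMB4 difference in 3 of the 24 omissions of 1 library (edgeR adjusted p up to 0.106 and 0.0781). In irradiated cells, the effect of CB-839 on LAMB2 differed by 0.46 (0.41 in E79Q, -0.044 in WT).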

How the results depend on the processing

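Of 159 calls of a member in a comparison, 110 were lost under no alternative or omission of 1 library that gave them a value, and 117 were made under every omission; 5 had no value under the filter of 1 CPM in 12 libraries and 1 had none with DESeq2. Calls kept, by setting, were 156 with DESeq2 (of 158 with a value), 156 with RLE scaling, 146 with no filter and 154 with a filter of 1 CPM in 12 libraries (of 154 with a value). With the compared groups alone 141 were kept, with offsets for GC content and gene length 154, and without 4 libraries 151. Calls gained were 11, 4, 20, 5, 34, 58 and 50, in the same order. The 4 libraries had the highest positive correlations of their deviations with GC content. They were replicate 1 of untreated E79Q cells (r = 0.166), replicate 3 of WT cells under CB-839 (0.180), and replicates 1 of WT (0.257) and 2 of E79Q cells (0.479) with both treatments. Libraries with a negative correlation were kept, down to -0.380 in replicate 1 of E79Q cells with both treatments. Between irradiated E79Q and WT cells, 10 members became 17 with the groups alone and 17 without the 4 libraries. Over all genes, 1538 calls became 3081 and 2595 in these settings. Between irradiated E79Q and WT cells under CB-839, 6 members became 10 with no filter, 2 with the groups alone, 13 with the offsets and 11 without the 4 libraries. All genes called there went from 1159 to 1102, 234, 1980 and 1391, in the same order. Radiation in E79Q cells under CB-839 gave 7 members in place of 11 with the groups alone, and 1667 in place of 4667 over all genes. CB-839 in irradiated cells gave 5 members in place of 9 in E79Q with the groups alone, and in WT 9 with the offsets and 8 without the 4 libraries in place of 5. Over all genes these were 1601 in place of 4141 in E79Q, and 2245 and 2084 in place of 1520 in WT. The genotype difference in the radiation effect gave, without CB-839, 7 members with the groups alone, 5 with the offsets and 7 without the 4 libraries in place of 3. All genes called were 611, 535 and 539 in place of 201. With CB-839 the difference in the radiation effect gave 0 members in place of 4 with the groups alone (edgeR, with 4 at an unadjusted p under 0.05). Over all genes it gave 40 in place of 172. The genotype difference in the CB-839 effect gave 15 members with the groups alone and 15 with the offsets in place of 9 in unirradiated cells. In irradiated cells it gave 2 with DESeq2, 2 with no filter, 4 with the offsets and 2 without the 4 libraries in place of 1. All genes called were 2969 and 3565 in place of 2280 in unirradiated cells, and 449, 302, 810 and 726 in place of 305 in irradiated cells. Values that changed sign and were called in an alternative were those of ITGB4 and ITGAV. For ITGB4 they were with radiation under CB-839 (-0.14 in WT and -0.11 in E79Q with the offsets, against 0.012 and 0.069). ITGAV changed sign with radiation in E79Q cells under CB-839 (0.21 with the offsets and 0.15 without the 4 libraries, against -0.045). It also did so under CB-839 in irradiated E79Q cells (0.18 and 0.16, against -0.041). Sign changes without a call in either fit are not listed. Apart from the omissions and settings named, the cause was not tested.

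Omitting 1 library gave, between E79Q and WT cells, 16 to 18 members untreated, 13 to 18 under CB-839, 7 to 16 irradiated and 4 to 11 with both. Radiation gave 14 to 18 in E79Q and 13 to 16 in WT cells, and under CB-839 10 to 13 in E79Q and 9 to 16 in WT cells. CB-839 gave 10 to 15 in E79Q and 10 to 16 in WT cells, and after radiation 7 to 10 in E79Q and 3 to 7 in WT cells, the lowest without replicate 3 of irradiated WT cells. The genotype differences gave 2 to 6 (radiation), 2 to 4 (radiation under CB-839, with 2 in 6 omissions), 7 to 17 (CB-839) and 1 to 5 (CB-839 after radiation, the highest without replicate 1 of irradiated E79Q cells under CB-839). The highest counts of 16, 11, 6 and 17 in the irradiated, irradiated with CB-839, radiation difference and CB-839 difference comparisons came without replicate 2 of irradiated E79Q cells under CB-839. Counts over all genes under these omissions are not given here.

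The replicate numbers of the labels did not pair the samples: the deviations of same-numbered libraries correlated at -0.175 to 0.0871, and 4 of 24 libraries correlated best with their own number. With the replicate block, 150 of the 159 calls were kept, 9 were lost and 1 was gained, and 16 members were called between untreated E79Q and WT cells, as without it.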
